A study of Brassica oleracea with 7 samples.

Results

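The subject is a set of 203 abundant callus-enriched genes of Brassica oleracea, out of 39481 genes measured by RNA-seq in 7 tissues. The genes were selected on their own deposited levels. A member had at least 30 FPKM in callus, and its FPKM + 1 in callus was at least 4 times the FPKM + 1 in each of the other 6 tissues. FPKM counts sequenced fragments relative to gene length and library size, so levels of genes of unequal length can be set side by side. Members were 0.514% of all genes, a share fixed by the rule, and their callus levels and folds below are descriptions. The callus was grown by tissue culture at 25 °C in an illumination box. The other 6 tissues, called organs here, were flower bud of 0.8 cm, flowers that opened on the same day, silique at 15 days after pollination, and leaf, root and stem of plants aged 7 weeks, all from a greenhouse at 15 to 25 °C. Each tissue was 1 library of poly(A)+ RNA with no replicate, and the labels name no cultivar, explant, hormone or age for the callus. Being callus and being grown in culture therefore cannot be told apart in this design.

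Callus is a mass of dividing, largely unorganised cells that plants form at wounds, and that is raised in culture on media with auxin and cytokinin. In Arabidopsis, callus induced on such media resembles the founding tissue of lateral roots, and regulators of lateral root formation are active in it even when it starts from a shoot organ. Cultured plant cells are also known for strong expression of secreted proteins, cell wall enzymes and stress responses. The files do not pair gene IDs with names, and 0 of the 203 members matched the RefSeq gene table of the species (53125 genes). No function is therefore given to any member, the label callus could not be checked against marker genes, and members are named by ID with a position on the scaffolds of the deposited table.

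The widths of the deposited intervals implied between 8459141 (flower) and 10598033 (root) fragments in gene models, with 8480189 in callus. Callus levels of the members rested on 100.0 to 13882 fragments, with a median of 821, and the deposited upper bound lay 6.88% above the level at the median and at most 20.0%. Counting error was thus small against a 4-fold limit in callus, but the scaling of the columns was not. Rescaling to equal upper quartiles lowered callus by 0.37 and raised root by 0.39 on the log2 scale, and 112 of the 203 genes still met the rule. Rescaling by trimmed means lowered callus by 0.42 and left 101. Neither rescaling brought in a gene from outside the 203. Scaling per fragment in gene models gave 219 genes, 202 of them members. The 100 members that met the rule under the deposited scaling and all 3 rescalings did not depend on the choice among these 4 scalings.

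Callus levels of the members spanned from 30.2 to 2659 FPKM, with a median of 73.5 and quartiles of 43.6 and 135. In bulk tissue, more cells that express a gene and more transcript per cell cannot be told apart. There were 81 members at 100 FPKM or more, 8 at 500 or more and 2 at 1000 or more, and 64 lay below 50 FPKM. Together the members held 4.73% of the summed FPKM of the callus library, against 0.157% (bud) to 0.344% (root) in the organs. That share was concentrated, since the 10 most abundant members made up 33.4% of the summed callus FPKM of all 203 and the first 2 made up 15.6%. Among the 100 most abundant genes of callus, 14 were members.

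The 2 members above 1000 FPKM were short genes that every organ also expressed. Bol015939 (Scaffold000159, 31997 to 32784; coding length 351 bases) was second of all genes in callus, at 2659 FPKM (deposited interval 2609 to 2708). It was at 163 FPKM in root, 65.5 in leaf, 59.0 in stem, 56.8 in silique, 16.2 in bud and 13.1 in flower. Root was thus its next tissue, with a log2 difference of 4.02 on the FPKM + 1 scale that is used for all differences here. Bol003214 (Scaffold000360, 37840 to 38966; coding length 375 bases) was at 1837 FPKM in callus (1797 to 1877). Its organ levels followed a similar order, with 34.7 FPKM in root, 20.0 in silique, 18.6 in leaf, 17.9 in stem, 4.39 in bud and 2.60 in flower. Both genes were lowest in the reproductive shoot, bud and flower.

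**Figure D1:**
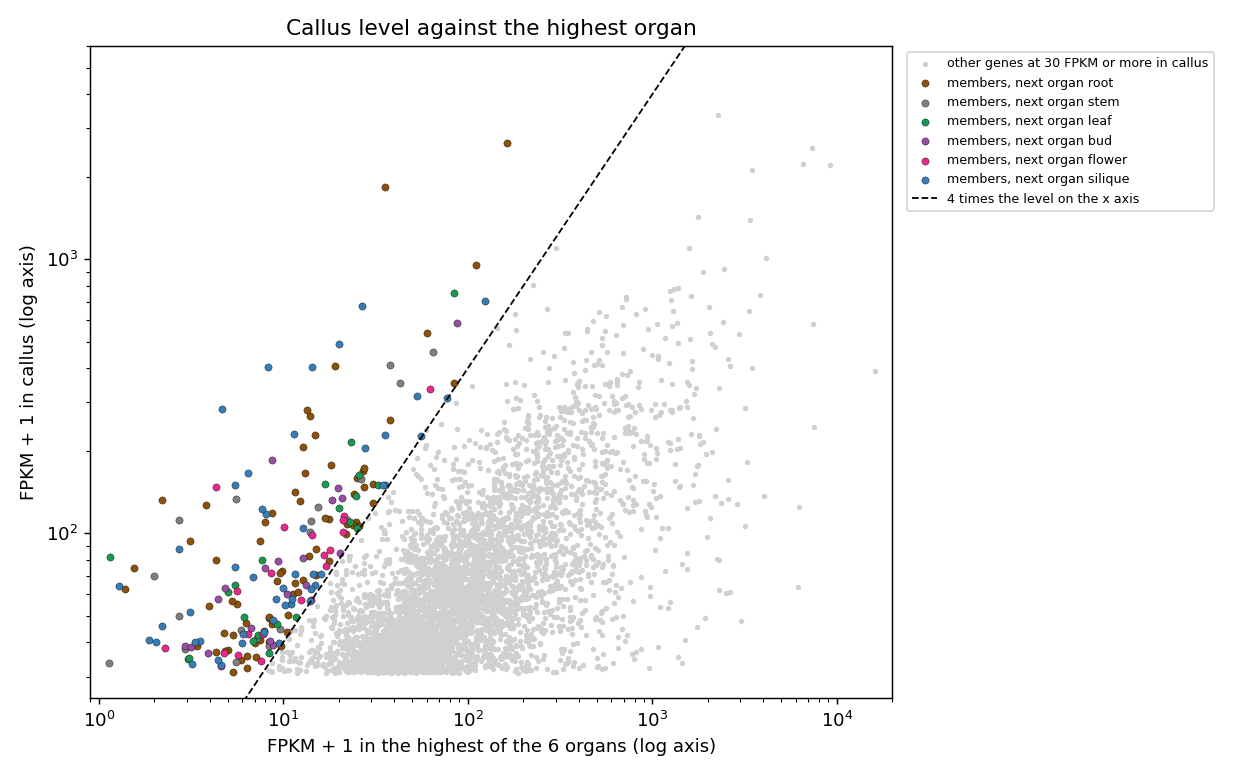
FPKM + 1 in callus against FPKM + 1 in the highest of the 6 organs for genes at 30 FPKM or more in callus, both on log axes, with 1 point per gene. The 203 members, coloured by their highest organ, lie on or above the dashed line of 4 times the organ level, and the 4479 other genes in grey lie below it.

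The fold over the next tissue had a median of 6.87 and ran from just above the limit to a log2 difference of 6.15. It reached 8-fold in 82 members, 16-fold in 35 and 32-fold in 13. The largest was that of Bol032338 (Scaffold000049, 1233461 to 1234814), at 81.2 FPKM in callus, 0.157 in leaf, 0.0785 in flower and listed at 0 in the other 4 organs. Bol008858 (Scaffold000242, 608927 to 609700) followed at 283 FPKM in callus, with 3.64 in silique, 2.74 in flower, 2.22 in leaf, 1.45 in bud, 0.527 in root and 0.264 in stem, a log2 difference of 5.94. The first was silent or nearly so outside callus, while the second kept a low level in most organs. The lower bound in callus was 4-fold above the upper bounds of all organs for 161 members, and for 42 it was not.

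Values on both sides of the limits were close. The lowest callus levels inside were 30.2 FPKM in Bol035512 and 31.2 in Bol004594. The highest callus levels among genes that met the fold but not the level were 29.9 FPKM in Bol000812 and 29.7 in Bol002674. At the fold limit, Bol036153 (37.9 FPKM in callus, 8.70 in root) was inside at 4.01-fold and Bol010293 (311 FPKM in callus, 76.4 in silique) at 4.02-fold. Bol016628 (43.1 FPKM in callus, 10.1 in flower) was outside at 3.99-fold, and Bol024541 (237 FPKM in callus, 58.6 in bud) at 3.98-fold.

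Where exactly 1 organ kept an abundant callus gene out of the set, that organ was most often root. Of 4682 genes at 30 FPKM or more in callus, 2251 were not 4-fold above any organ, and 251 were 4-fold above all organs but 1. Root was the organ not exceeded for 148 of these 251 genes, flower for 51, leaf for 18, silique for 14, bud for 11 and stem for 9. The 148 genes had median levels of 66.1 FPKM in callus and 57.7 in root. Taken organ by organ, 27.1% of the 4682 genes were 4-fold higher in callus than in root, 26.0% than in flower, 25.7% than in leaf, 20.6% than in bud, 19.4% than in silique and 17.3% than in stem. Over all abundant callus genes, root was thus exceeded most often and stem least often under the deposited scaling, with root, flower and leaf close together. Upper quartile rescaling shifted root by 0.39, flower by 0.14 and leaf by -0.05 on the log2 scale. Neither these shares nor the counts of organs not exceeded were recomputed after rescaling, so their order may depend on it. Members passed all 6 comparisons by the rule, so nothing is read from their own counts here.

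Root was also the most frequent next tissue of the members. It held the highest organ level of 75 members (36.9%), ahead of silique with 48 (23.6%), leaf and flower with 21 each (10.3%), and bud and stem with 19 each (9.36%). Among the 1307 other genes at 30 FPKM or more that were highest in callus, root was next for 333 (25.5%), flower for 267 (20.4%), leaf for 236 (18.1%), bud for 194 (14.8%), silique for 174 (13.3%) and stem for 103 (7.88%). These shares were not tested against each other, because genes of 1 library per tissue are not replicates. Root stayed first for 41 of 112 members after upper quartile rescaling and for 38 of 101 after trimmed mean rescaling. Both of these rescalings raise root against callus and against every other organ, and so favour root as the next organ. Scaling per fragment in gene models shifted root by -0.13 on the log2 scale, and root was still first, for 75 of 219 genes (34.2%). The next organ was clear of the others beyond counting error, with its lower bound above the upper bounds of the remaining 5 organs, for 105 members, 46 of them with root next and 25 with silique next.

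**Figure D2:**
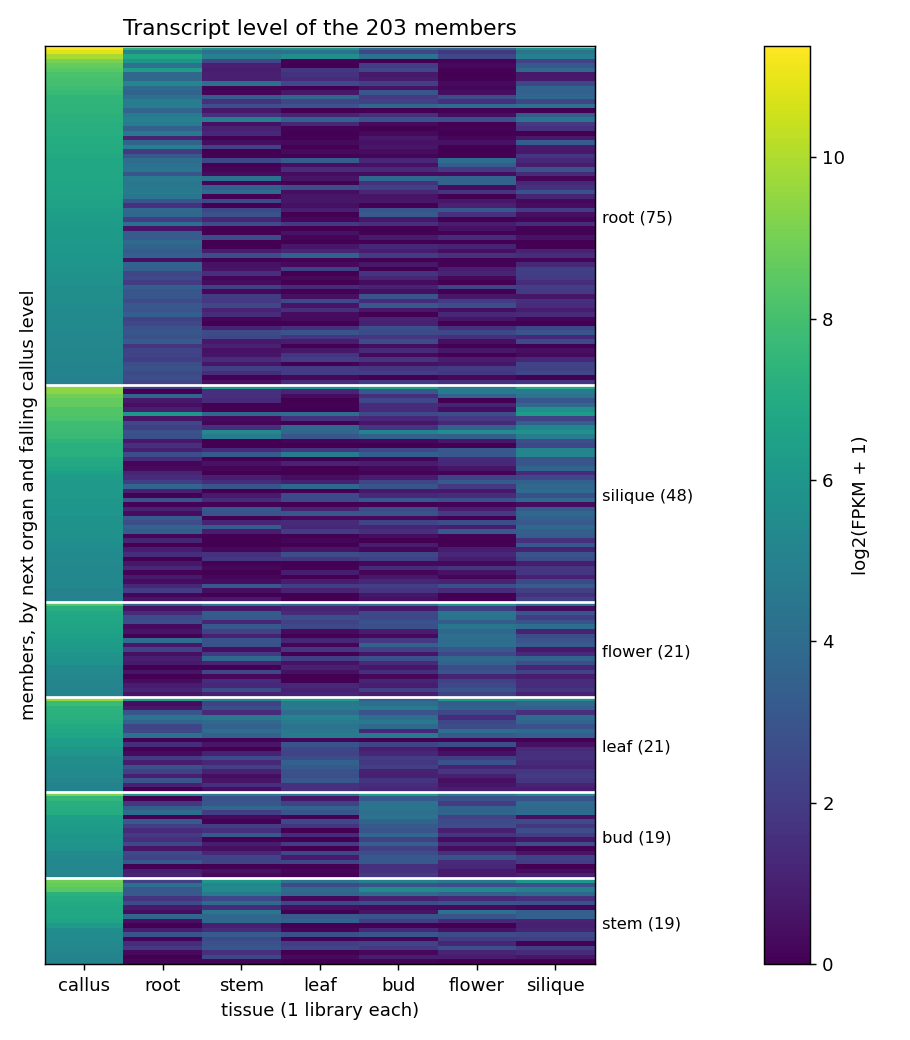
Level of each of the 203 members, 1 line per gene, in the 7 libraries as log2(FPKM + 1), grouped by next organ with the number of members beside each group and sorted by callus level within it. Callus is the brightest column by the rule, and the next organ forms a weaker band within each group, widest for root (75 members) and silique (48).

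Members with root next were grouped by their highest organ, so shoot levels below root were set in advance and only their size is described. The median level of this group was 81.7 FPKM in callus and 10.2 in root, but 1.76 in silique, 1.16 in bud, 1.03 in stem, 0.597 in leaf and 0.501 in flower. Root levels in this group ranged from 0.387 to 163 FPKM. Its 2 most abundant members were Bol015939 and Bol003214, described above, and the first was at 65.5 FPKM in leaf. In this group 16 of 75 members reached 1 FPKM in all 6 organs. The 48 members with silique next had a similar contrast, with medians of 69.1 FPKM in callus, 8.32 in silique, 1.52 in bud, 1.43 in flower, 1.20 in root, 0.843 in leaf and 0.595 in stem.

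Among the members with silique next, Bol023923 (Scaffold000096, 378515 to 379682) was at 704 FPKM in callus (686 to 721), 124 in silique, 86.5 in bud, 61.2 in stem, 45.0 in leaf, 26.5 in flower and 2.73 in root. It was expressed throughout the shoot and low in root. Bol030014 (Scaffold000062, 430097 to 431236) was at 675 FPKM in callus (654 to 695) and at 25.6 in silique, 24.2 in flower and 7.80 in bud, against 1.99 in stem, 1.26 in leaf and 0 in root. Its expression outside callus was mostly in the reproductive organs, and silique and flower overlapped within their intervals.

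The groups with flower, leaf, bud or stem next were smaller, and their leading members ranged from genes present in all organs to genes nearly absent from most. With flower next, Bol044035 (Scaffold000004, 4197274 to 4198128) was at 334 FPKM in callus, 61.4 in flower, 24.4 in stem, 22.1 in bud, 19.1 in silique, 12.6 in leaf and 10.01 in root. Bol025232 (Scaffold000088, 161114 to 162917) was at 146 FPKM in callus, 3.33 in flower and 1.22 in leaf, and below 1 in bud (0.740), stem (0.658), root (0.492) and silique (0.324). In the first, root and leaf overlapped within their intervals as the lowest organs.

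With leaf next, Bol034135 (Scaffold000040, 1678703 to 1680071) was at 753 FPKM in callus. It was at 83.4 FPKM in leaf, 80.0 in root, 72.1 in flower, 51.0 in silique, 37.7 in stem and 9.65 in bud, and leaf and root overlapped within their intervals. Bol003635 (Scaffold000345, 286705 to 299141) was at 214 FPKM in callus, 22.3 in leaf, 16.1 in bud, 13.3 in silique, 9.15 in flower, 3.63 in stem and 0.304 in root. Its locus overlaps those of other members, so its values are uncertain, as described with the neighbouring genes. Root was near the highest organ level in the first of these genes and the lowest organ in the second.

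With bud next, Bol043087 (Scaffold000006, 3736242 to 3737485) was at 582 FPKM in callus, 86.4 in bud, 52.4 in root, 44.1 in silique, 27.7 in flower, 26.7 in stem and 26.6 in leaf. Bol019288 (Scaffold000132, 678297 to 679094) was at 184 FPKM in callus and between 6.03 and 7.73 in bud, stem, silique and flower, but at 0.671 in leaf and 0 in root. With stem next, Bol035317 (Scaffold000035_P2, 617268 to 617539) was at 459 FPKM in callus, 63.9 in stem, 61.8 in silique, 31.2 in bud, 22.99 in flower, 18.96 in leaf and 3.75 in root. Bol001447 (Scaffold000443, 136283 to 139115) was at 410.0 FPKM in callus, 36.8 in stem and 16.6 in root, and between 5.003 and 6.77 in bud, silique, flower and leaf. Stem and silique could not be separated in the first of these stem genes, while stem stood clear of the other organs in the second.

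**Figure D3:**
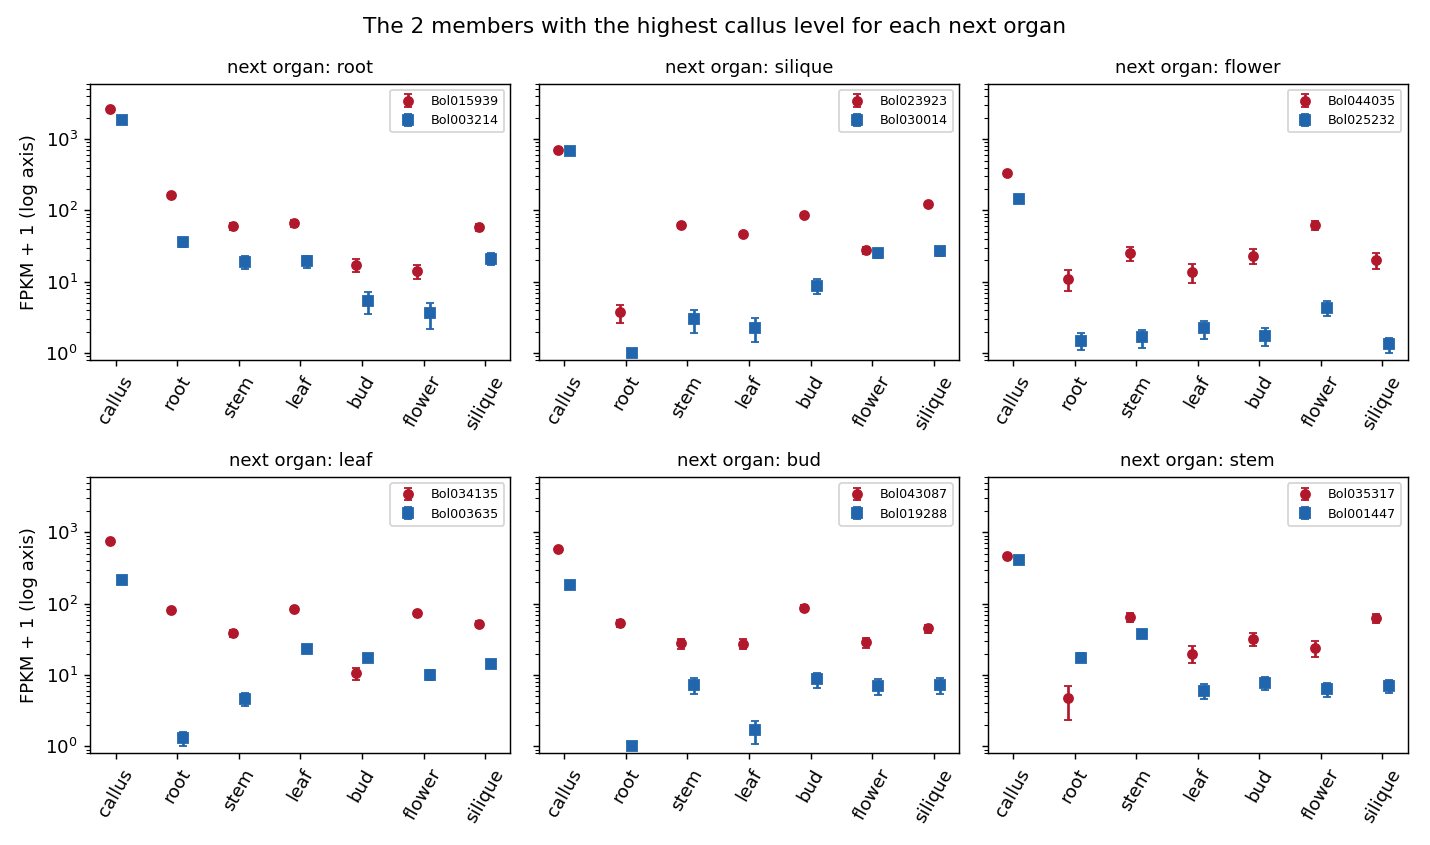
FPKM + 1 on a log axis in the 7 libraries for the 2 members with the highest callus level in each next-organ group, with bars for the deposited interval bounds. Callus is the highest point in each panel, and root is the lowest organ for Bol023923, Bol030014, Bol044035, Bol003635, Bol019288 and Bol035317.

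In 23 members the next tissue was itself 4-fold above the remaining organs, so that callus and 1 organ stood out together. That organ was root in 16 members, silique in 6 and bud in 1. Bol019964 (Scaffold000127, 857800 to 859914) was the most abundant of them, at 538 FPKM in callus and 58.7 in root, with 4.28 in stem, 4.03 in silique, 0.0963 in leaf, 0.0960 in flower and 0 in bud. Bol037590 (Scaffold000024, 2009266 to 2013018) was next, at 403 FPKM in callus and 13.3 in silique, with 1.77 in bud, 1.27 in flower, 0.375 in root, 0.0537 in stem and 0.0531 in leaf. None of the 23 had flower, leaf or stem as its next tissue. The bud gene, Bol027880, had interval widths that implied no single coding length, so the number of fragments behind its 83.8 FPKM in callus and 19.3 FPKM in bud is unknown.

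Expression outside callus was often low but rarely absent from all organs. At a threshold of 1 FPKM, 59 members (29.1%) were detected in all 6 organs, 33 in 5, 21 in 4, 30 in 3, 33 in 2, 21 in 1 and 6 in none. The 59 broadly detected members had the highest median callus level, 114 FPKM, against 53.8 to 72.4 FPKM in the other 6 classes. The rule allows higher organ levels in members with higher callus levels, so it may set this difference in part. Of the other 4479 genes at 30 FPKM or more in callus, 3934 (87.8%) were detected in all organs and 0 in none, a contrast that the 4-fold rule sets in part by capping organ levels. By organ, 157 members reached 1 FPKM in silique, 144 in root, 130 in bud, 122 in stem, 121 in flower and 106 in leaf. Leaf also had the lowest median, 1.14 FPKM, followed by stem and flower (both 1.55), bud (1.92), silique (3.25) and root (4.003). The medians of all genes at 30 FPKM or more in callus lay in another order, from 28.6 in root to 37.4 in bud.

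No member was listed at 0 in all 6 organs, but 68 were listed at 0 in at least 1. There were 41 such members in leaf, 25 in stem, 22 in flower, 15 in bud, 13 in root and 10 in silique. At the median coding length of the members, 3 fragments would have been 0.225 to 0.228 FPKM in the organs. A listed 0 in a member of that length allows up to about that level by counting error alone. The floor was higher for shorter members, such as 0.963 to 0.977 FPKM in the organs for Bol005530 (225 bases), close to 1 FPKM. The 6 members below 1 FPKM in every organ were at 32.7 to 81.2 FPKM in callus. Bol032338, described above, was the highest of them and Bol024751 (Scaffold000091, 302807 to 303719) the second, at 73.5 FPKM in callus (68.0 to 78.9), 0.547 in root, 0.451 in flower, 0.0901 in silique and 0 in bud, leaf and stem. At the other end, 93 members reached 10 FPKM and 20 reached 30 FPKM in at least 1 organ.

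Across the 203 members, organ levels went together in the shoot and less so with root. Spearman's rho between organs was 0.66 for bud and stem, 0.66 for bud and leaf, 0.65 for bud and flower and 0.63 for leaf and stem. With root it was 0.34 for leaf, 0.33 for stem, 0.25 for bud, 0.20 for silique and 0.08 for flower. Over the other 4479 genes at 30 FPKM or more in callus, root had values of 0.33 (stem), 0.28 (leaf), 0.19 (bud), 0.13 (silique) and 0.01 (flower). For silique with the shoot organs the members had lower values than those genes, at 0.53 against 0.80 with bud, 0.52 against 0.68 with flower, 0.46 against 0.70 with leaf and 0.46 against 0.69 with stem. The points are genes that share libraries and scaling, and the rule caps their organ levels, so these values are descriptions.

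The same rule was applied to each organ to see how usual such a set is. It gave 224 genes in bud (0.567% of all genes), 211 in root (0.534%), 164 in silique (0.415%), 142 in flower (0.360%), 70 in leaf (0.177%) and 28 in stem (0.0709%). The callus set was thus the third in size, and the third as a share of the genes at 30 FPKM or more in its own tissue, at 4.34% against 6.51% in root and 5.11% in bud. Its median level of 73.5 FPKM was the second lowest of the 7 sets, above silique at 63.8 and below bud (75.2), leaf (76.1), stem (80.5), flower (109) and root (144). Callus and root were each other's most frequent next tissue, since callus was next for 119 of the 211 root genes. Silique and callus were not paired in that way: silique was next for 48 callus genes, while callus was next for 10 of 164 silique genes, whose most frequent next tissue was stem (75). In the callus set 68 of 203 genes were listed at 0 in at least 1 other tissue. That share lay below those of bud (179 of 224 genes) and silique (127 of 164), and above those of flower (39 of 142), leaf (17 of 70), root (36 of 211) and stem (4 of 28). Upper quartile and trimmed mean rescaling left 112 and 101 genes in the callus set. The organ sets were not recomputed after rescaling, so the ranks and next tissues given here for the 7 sets may depend on it.

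Gene structure was not used by the rule. A coding length could be derived for 202 members, with a median of 965 bases and a range from 171 to 4476. The median was 909 bases for 4470 other genes at 30 FPKM or more in callus. Very short genes were a larger part of the members, with 23 (11.4%) under 300 bases against 4.21% of the other abundant callus genes and 4.24% of all genes that reached 1 FPKM in any tissue. Under 600 bases the shares were 29.2% and 27.99%. Members were also a larger part of the class from 1050 to 1200 bases, at 14.9% against 7.47%. In the next class, from 1200 to 1350 bases, they were a smaller part, at 4.46% against 7.05%. The differences between length classes were not tested, and nothing is read from single classes. Bol035359 (Scaffold000035_P2, 1078277 to 1078579) had the shortest coding length, 171 bases, and was at 48.5 FPKM in callus on 103 fragments, with 2.11 to 5.09 FPKM in the organs. Bol005318 (Scaffold000302, 461385 to 462129), at 174 bases, was at 104 FPKM in callus and 9.14 in flower, its next organ.

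**Figure D4:**
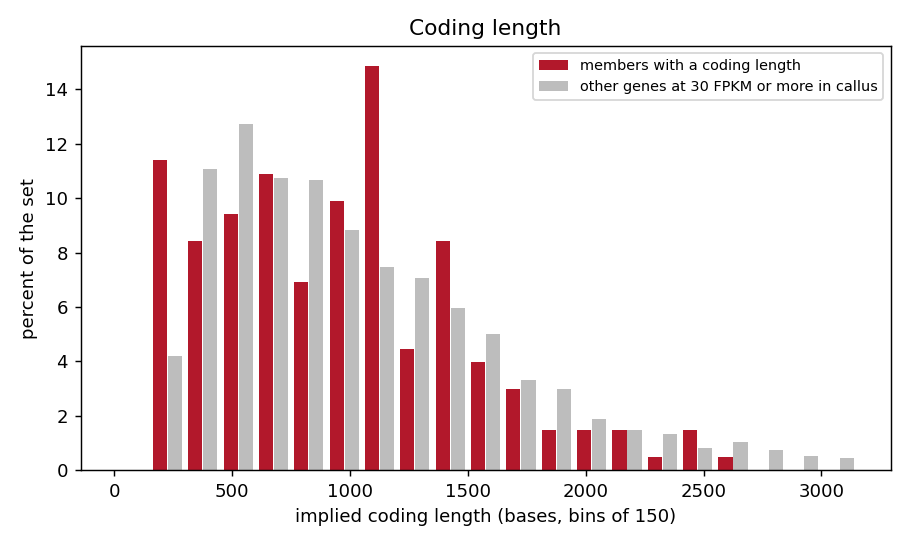
Percent of genes in bins of 150 bases of implied coding length, for 202 members and for 4470 other genes at 30 FPKM or more in callus. The bin from 150 to 300 bases holds 11.4% of the members and 4.21% of the other genes, and the bin from 1050 to 1200 bases 14.9% and 7.47%. Genes longer than the last bin count in the percentages and are not drawn.

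The longest members were a pair with nearly the same length and profile. Bol035512 (Scaffold000034_P2, 460150 to 465551), with 4476 coding bases, was at 30.2 FPKM in callus, 4.36 in root, 3.10 in bud, 2.63 in silique, 2.12 in flower, 1.74 in leaf and 0.442 in stem. Bol035509 (Scaffold000034_P2, 435304 to 440630), with 4464 coding bases, was at 33.4 FPKM in callus, 3.43 in silique, 3.21 in root, 2.37 in bud, 1.55 in flower, 1.23 in leaf and 0.328 in stem. Both were lowest in stem and had low levels in the other organs. Whether they are copies that share fragments was not tested.

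Intronless genes, whose locus is no longer than the coding length, were 6 of the 202 members (2.97%; 95% Wilson interval 1.37% to 6.33%). They were 14 of 4470 other genes at 30 FPKM or more in callus (0.313%; 0.187% to 0.525%) and 2.29% of all genes that reached 1 FPKM in any tissue. These intervals treat genes as independent draws, and genes are not replicates, so the difference between the shares was not tested. The same rule gave a larger intronless share in silique, at 17.1% (28 of 164). It was 1.45% in leaf, 1.41% in flower, 0.962% in root and 0 in bud and stem. Of the 6 intronless members, 5 had coding lengths of 225 to 393 bases. Bol005530 (Scaffold000297, 92461 to 92685) was the most abundant, at 150 FPKM in callus, 4.49 in silique, 1.95 in root and 0 in the other 4 organs. Bol037259 (Scaffold000025, 324467 to 324784) followed at 137 FPKM in callus and 23.2 in root, with 1.38 in stem, 0.230 in bud and 0 in flower, leaf and silique. Both were listed at 0 in flower and leaf. In leaf, 3 fragments would have been 0.967 FPKM for the first and 0.684 for the second.

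Members were spread over 127 scaffolds, with at most 7 on 1 scaffold (Scaffold000088, among 217 genes). Of 38782 pairs of genes next to each other in the table, 10 were pairs of members, and these formed 9 runs with 19 genes in all. Such pairs were not counted for other sets of genes, so 10 is not read as many or few. The ID numbers were consecutive in all 10 pairs. The share of consecutive IDs among all adjacent pairs was not computed, so nothing about the members is read from this. The 375 genes beside members that were not members themselves had a median of 4.80 FPKM in callus, against 3.27 for all genes, and 12.5% of them reached 30 FPKM in callus, against 11.9% of all genes. Among them 10 (2.67%) met the 4-fold limit with 1 to 30 FPKM in callus, against 0.453% of all non-members. The share of these neighbours at 30 FPKM or more was thus near that of all genes, while their median callus level was higher. The differences in the median and in the share of lower callus-enriched genes were not tested.

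Both genes had the same next organ in 8 of the 10 pairs. In 3 of these 8 the loci overlapped, so that fragments may be shared, and among the 7 pairs without overlap the count was 5. No such share was computed for other pairs of members or for other adjacent genes, so these counts stand without a background. After upper quartile rescaling 3 adjacent pairs of members were left, and after trimmed mean rescaling also 3. The overlapping pairs were Bol001667 with Bol001668, which share 629 bases of locus, and the 2 pairs among Bol003633, Bol003634 and Bol003635. Bol034135 and Bol034136 (Scaffold000040, 1682192 to 1683101) held the most abundant member of any run. The second gene was at 150 FPKM in callus, 33.6 in silique, 7.81 in flower, 4.47 in bud, 2.55 in leaf, 1.55 in stem and 1.03 in root. The organ profiles of these neighbours differed, with root near leaf in the first gene and lowest in the second. Bol008858 and Bol008859 (Scaffold000242, 611681 to 617704) lay 1980 bases apart, and both had silique next. The second of them was at 116 FPKM in callus, 7.04 in silique, 1.42 in flower, 1.14 in leaf, 0.863 in bud, 0.461 in stem and 0.115 in root, the same order at the top and low in root and stem like its neighbour.

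Some neighbours had profiles so close that they may not be independent counts, and these were singled out after their values were seen. Bol007094 (Scaffold000266, 2808 to 6201) and Bol007095 (6376 to 7199) were 174 bases apart. They were at 267 and 280 FPKM in callus, 12.9 and 12.5 in root, 1.72 and 2.13 in leaf, 1.029 and 1.006 in stem, 0.760 and 0.708 in silique, 0.899 and 0.718 in bud, and 0.0634 and 0 in flower. Whether both loci belong to 1 transcript was not tested. Bol003633, Bol003634 and Bol003635 (Scaffold000345, 248125 to 299141) had overlapping loci and the same coding length of 1062 bases. Callus levels were 163, 33.8 and 214 FPKM, leaf levels 24.6, 2.05 and 22.3 FPKM, and root levels 0.648, 0.0283 and 0.304 FPKM. All 3 had leaf next and were lowest in root, and how the authors' counting divided fragments among them is not given in the sources used here.

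**Figure D5:**
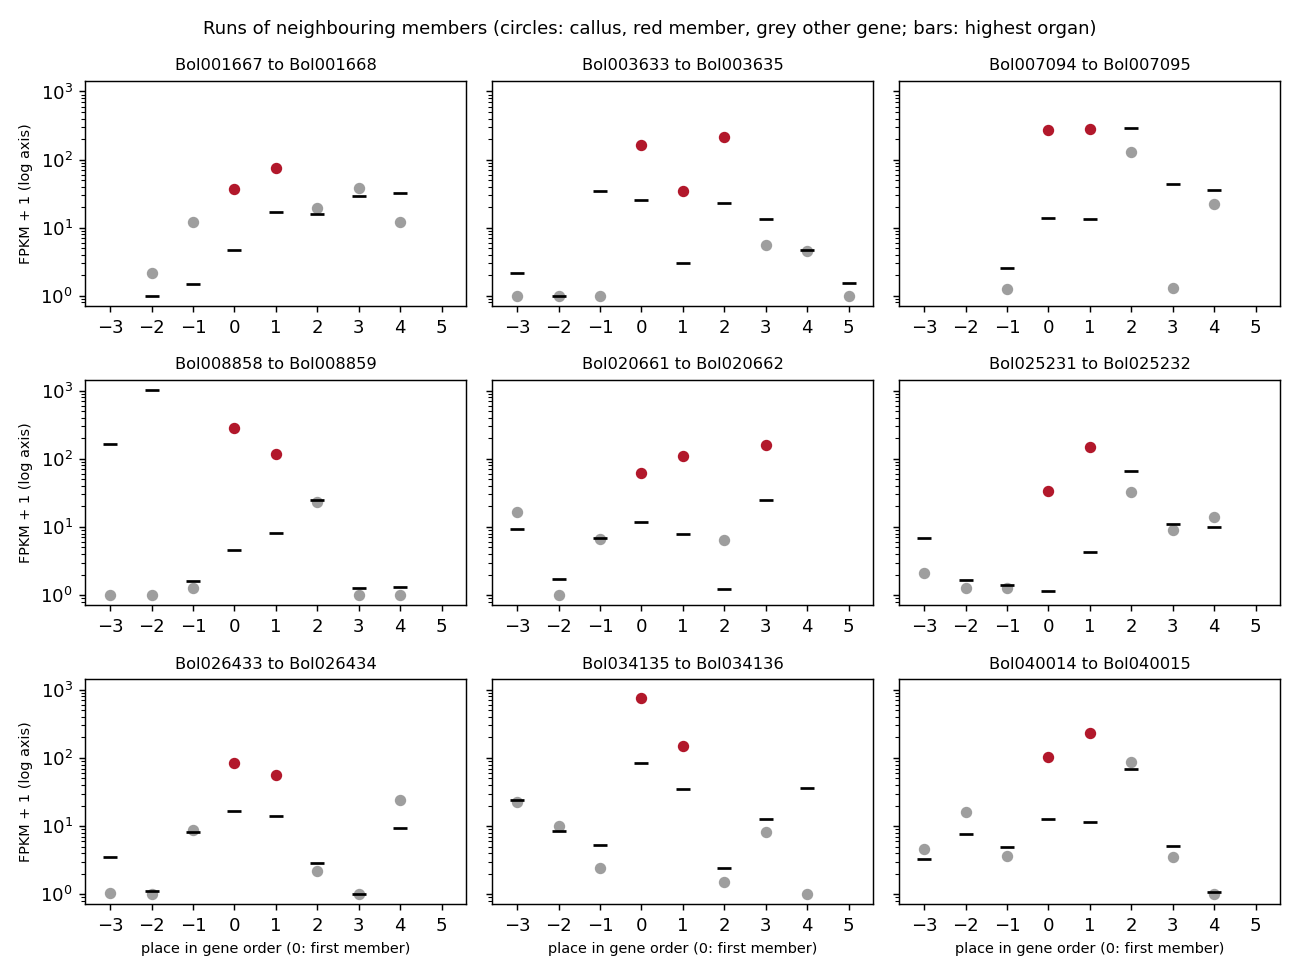
FPKM + 1 on a log axis in callus (circles, red for members and grey for other genes) and in the highest organ (bars) for the 9 runs of neighbouring members and up to 3 genes on each side, by place in gene order. In each run the red circles lie above their bars, and most grey circles lie at or below theirs.

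In all, 18 members (8.87%) had a locus that overlapped another gene, close to the 8.70% among all genes. The kit named in the labels does not mark strand, so fragments in overlapping loci cannot be assigned to a strand. The implied number of callus fragments was whole for 160 members (78.8%), against 77.3% of all genes at 30 FPKM or more in callus. In the other 43 members it was not whole, and whether those genes share fragments with other loci was not tested.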

How the data were processed

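Transcript levels of 7 tissues of Brassica oleracea, 1 library each, were taken from the deposited table, which gives FPKM with a lower and an upper bound per gene and tissue, per the file headers. The submitters' processing notes name TopHat 1.0.13. The quantifier is not given in the sources used here, nor are the genome build and annotation. Column names were mapped to tissues by the first line of the table. Starts were raised by 1 so that positions count from 1.

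Fragments behind each value were derived by taking the upper bound to lie 2 SD of a count above the FPKM. Coding lengths followed from values on at least 10 fragments, scaled on genes whose locus span equals their length, and were left out where tissues differed by more than 2%. A gene was called intronless where length and locus span agreed within 0.2%. Deposited intervals and floors (3 fragments) cover counting error only, and Wilson intervals treat genes as independent draws. Fragments were called whole within 0.02, or more widely for large counts, as values carry few digits.

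Members were found by the rule given above. With 1 library per tissue no test was run, and no result has a replicate check. IDs named are the 2 members at the extreme of each property described, or with the highest callus level where a property has no order. Members, lists and properties were chosen with earlier results of these data known. Marker lists for callus and lateral root, dividing cells, wounding, photosynthesis and root were prepared, but 0 IDs matched names, so none was used. Alternatives were pseudocounts of 0.1 and 0.5, other levels and folds, 3 rescalings (trimmed means without 30% of log ratios and 5% of abundances at each end), interval bounds, and single organs left out. Leaving out overlapping members was added after the data were seen. The derivation of fragments, library sizes and coding lengths and the rule for members were tested on simulated counts. The other steps, such as rescaling, next organ, intronless calls, neighbours and correlations, were not. Python 3.11.15, numpy 2.4.6, pandas 2.3.3 and scipy 1.17.1 were used.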

Additional observations from a re-analysis of the deposited data

How the results depend on the processing

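Of 56 values recomputed under alternative settings, 36 stayed within 1.5 times of a reported count, or within the interval bounds of a reported level or share, and 20 moved. The number of members moved from 203 to 112 after upper quartile rescaling, 101 after trimmed mean rescaling, 82 at 8-fold, 381 with no minimum level beyond 1 FPKM and 351 with root left out. With the other organs left out in turn it was 212 to 254. After upper quartile rescaling, 41 members had root next, 42 were listed at 0 in at least 1 organ, 3 pairs were adjacent, and members held 3.55% of the summed callus FPKM. After trimmed mean rescaling these values were 38, 39, 3 and 3.42%, and the median callus level was 81.6 FPKM. Per fragment in gene models the share was 5.12%. At a minimum of 50 FPKM the median was 111 FPKM, the share 4.31% and the adjacent pairs 6. Without members that overlap another locus, a setting chosen after seeing the data, the share was 4.48% and the adjacent pairs 6. Fewer members follow from a lower callus scale or a stricter limit by construction. The intronless share stayed within its interval under the settings tried. No paired analysis was possible because the 7 tissues have no replicates to pair.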
